A study of Mus musculus with 16 samples.

Results

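Cortical lymphatic endothelial cells (LECs), marked by Ptx3, Reln and Itih5, were picked from single-cell RNA profiles of mouse inguinal lymph nodes. The rule worked on raw counts of unique molecular identifiers (UMIs), each of which stands for 1 captured transcript. It first kept LECs, as cells with 200 to 6000 detected genes, at most 30% mitochondrial UMIs, at least 2000 UMIs, at most 1 UMI of the leukocyte gene Ptprc, none of the mural and fibroblast gene Pdgfrb, at least 1 UMI of Pecam1 and at least 1 UMI over Prox1, Flt4 and Mmrn1. A kept LEC was a member when its UMIs of Ptx3, Reln and Itih5 summed to at least 3 and exceeded each of 4 other sums. These were the ceiling sum (Ackr4, Cd36, Prss23), the floor sum (Coch, Bmp2, Kcnj2, Madcam1), the medullary sum (Marco, Npnt, Galnt15) and the sum of Clec4g, Scin and Lrp2. Of 68741 barcodes, 50386 passed the limits on genes and mitochondrial UMIs and 9452 passed as LECs, of which 468 were members. The same rule gave 3862 ceiling, 3512 floor and 862 medullary LECs, while 8 cells were led by the Clec4g sum and 740 by none. Levels that made the members differ from other LECs are therefore given as a description, with no test.

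The 16 libraries came from PDPN-enriched node stroma of sex-matched C57BL/6 mice, 8 weeks old, with 3 libraries from each node of inoculated mice and 4 from naive mice. In the live groups, 500000 viable MC38 cells, a colon carcinoma line of the same strain, were placed under the skin of the lower right flank, and on day 12 the draining and the contralateral non-draining inguinal nodes were taken. In the fixed groups the same number of MC38 cells had been killed with paraformaldehyde, and the same pair of nodes was taken on the same day. The naive mice had no inoculum, although their labels carry the name of the MC38 line as well. By the methods, 3 mice were used for each inoculum, as many as the libraries of each node. Which libraries came from the same mouse is not given, and the letters are not said to mark 1 mouse across nodes, so both nodes of a mouse were treated as separate samples and p-values measure the spread between libraries. Libraries held 7486725 to 48945961 UMIs in all, with the fewest in non-draining nodes. The barcodes kept in any pair of libraries overlapped by at most 0.324% of the smaller library.

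Lymph enters a node through the subcapsular sinus, which has an outer ceiling and an inner floor of LECs, and leaves through medullary sinuses, where scavenging LECs meet macrophages. Cortical sinuses run through the cortex and the paracortex and are a route by which lymphocytes leave the node. Ptx3 encodes pentraxin 3, a secreted pattern recognition molecule that also binds hyaluronan matrix. Itih5 encodes a heavy chain of the inter-alpha-trypsin inhibitor family, which is attached to hyaluronan. Reln encodes the secreted glycoprotein reelin, and Mrc1 encodes the mannose receptor, an endocytic lectin receptor. On GRCm38 the annotation places Ptx3 at chr3:66219910-66225805 on the plus strand, Reln at chr5:21884454-22344702 on the minus strand, Itih5 at chr2:10153571-10256529 and Mrc1 at chr2:14229392-14332057, both on the plus strand.

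The members were few in every library. Live draining nodes gave 30, 25 and 31 members and live non-draining nodes 30, 22 and 20, fixed draining nodes 53, 35 and 36 and fixed non-draining nodes 17, 15 and 11, and naive nodes 56, 31, 31 and 25 (replicates in the order A, B, C and D). Their summed UMIs ran between 87153 in a fixed non-draining and 499651 in a naive library. Members were shallower than other LECs, with a median of 7101.5 UMIs per cell against 9879 in ceiling, 11308 in floor and 8682 in medullary LECs. The median mitochondrial percent was 5.56 in members, against 2.79% in ceiling, 2.13% in floor and 4.34% in medullary LECs. The sum of Ptx3, Reln and Itih5 ran between 3 and 79 UMIs over the members, with a median of 8.5. Just inside the threshold, 51 members had a sum of 3, of which 56.9% had a UMI of Mrc1 and 88.2% of Lyve1, a hyaluronan receptor gene. Just outside it, 57 LECs had a sum of 2 above their other sums, of which 56.1% had a UMI of Mrc1 and 77.2% of Lyve1. A further 535 LECs had a sum of at least 3 that did not exceed another sum, and 75.9% of these had a UMI of Cd36, a ceiling gene.

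The label held for most members but not for all. All 3 rule genes were found in 206 members (44.0%), and 92.2% of these also had a UMI of Mrc1, which the rule did not use. Itih5 was the only rule gene in 70 members (15.0%), and 10.0% of these had a UMI of Mrc1. Of these 70 cells, 54 (11.5% of all members) held 10 to 215 UMIs (median 71.5) over Flt1, Ly6c1, Aplnr, Cd34 and Sparcl1, genes of blood endothelial cells. Prox1, Flt4 and Mmrn1 summed to at most 3 UMIs in those 54 cells, 4 had a UMI of the lymphatic regulator Prox1 and 2 had one of Mrc1. The other 414 members held at most 3 UMIs of the blood endothelial genes, with 395 of them at 0, and a median of 16 UMIs over Prox1, Flt4 and Mmrn1. No cell lay between these ranges. The cells rich in blood endothelial genes numbered 1 to 3 in each live draining, 3 to 6 in each live non-draining, 2 to 5 in each fixed draining, 0 to 2 in each fixed non-draining and 3 to 7 in each naive library. They were 3 of 30, 1 of 25 and 2 of 31 members in live draining nodes, compared with 3 of 30, 4 of 22 and 6 of 20 in live non-draining nodes. Their median was 11087 UMIs per cell, against 6311 in members with Ptx3 or Reln. In UMIs summed over members they thus weigh more than their number, and unevenly between the live nodes. The other 16 cells with Itih5 alone were mixed. Prox1 was found in 10 of them, Flt4 in 10, Mmrn1 in 8, Lyve1 in 6 and Mrc1 in 5. Of the genes of fibroblastic reticular cells, Cxcl13 was found in 12 (median 1.5 UMIs) and Col1a1 in 11 (median 2.0 UMIs), beside 42.5% and 8.04% of the members with Ptx3 or Reln. The highest values among these 16 cells were 1367 UMIs of Cxcl13 and 55 of Col1a1, so that some held far more than the medians.

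The 54 cells rich in blood endothelial genes thus go against the label. Most main results are therefore also given for the 398 members with a UMI of Ptx3 or Reln, called Ptx3/Reln members here, which leaves out all 70 cells with Itih5 alone. Values of some named genes are given over all members only. This restriction was chosen after the values were seen. It leaves 9 cells in fixed non-draining replicate C, under the minimum of 10 cells for a library, so that this group then has 2 libraries. Among the Ptx3/Reln members, thinned to 2000 UMIs per cell, Lyve1 was found in 91.5% (Wilson 95% interval 88.3 to 93.8%) and Mrc1 in 62.6% (57.7 to 67.2%). Mrc1 was found in 3.52% of ceiling, 2.11% of floor and 35.7% of medullary LECs thinned in the same way. Flt1 was found in 0.251% of the Ptx3/Reln members and in 90.7% of the 54 cells rich in blood endothelial genes. Without thinning, Mrc1 was found in 80.2% of Ptx3/Reln members, 7.48% of ceiling, 7.69% of floor and 68.4% of medullary LECs. The intervals cover counting error only.

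**Figure D1:**
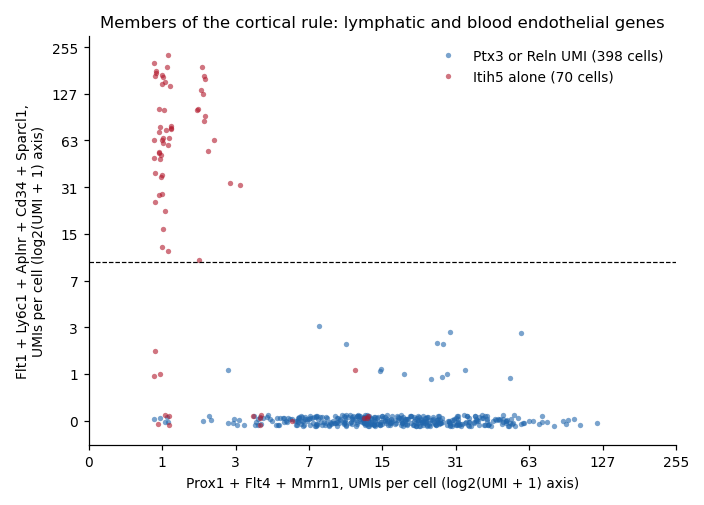
UMIs of 3 lymphatic genes (x axis) and 5 blood endothelial genes (y axis) in each of the 468 members, both on a log2(UMI + 1) axis with a small random shift, coloured by whether the cell had a UMI of Ptx3 or Reln. The 54 cells above the dashed line (10 UMIs) are all cells with Itih5 alone, and they hold at most 3 UMIs of the lymphatic genes.

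Genes outside the rule that stood highest in cortical against other LECs are described next, as means over the 15 libraries with at least 10 Ptx3/Reln members. Levels are CPM, the share of a gene in all UMIs summed over the cells of a library, scaled by TMM normalization where a test is given. Lsamp, an adhesion molecule best known from neurons, averaged 71.9 ± 34.1 CPM in Ptx3/Reln members (SD), against 1.92 CPM in ceiling, 1.30 CPM in medullary and 0.0188 CPM in floor LECs. Apba2, an adaptor protein gene, averaged 75.7 ± 49.8 CPM in these members, against at most 2.28 CPM in another type. Hpgd, which encodes an enzyme that inactivates prostaglandins, averaged 132 ± 52.5 CPM, against 8.61 CPM in medullary LECs, the next highest type. The widest ratios outside the rule were thus those of Lsamp (37.4), Apba2 (33.2) and Hpgd (15.3). The cyclin gene Ccnd2 averaged 162 ± 70.6 CPM in the members against 27.4 CPM in ceiling LECs, and the survival gene Bcl2 140.0 ± 34.0 CPM against 28.3 CPM. Adamts5, a protease gene of proteoglycan turnover, averaged 475 ± 149 CPM against 108 CPM in ceiling LECs. Kcnj8 and Abcc9 encode the pore and the regulatory subunit of an ATP-sensitive potassium channel. Kcnj8 averaged 129.9 CPM in the members against 30.5 CPM in floor LECs, and Abcc9 52.0 CPM against 6.96 CPM. The remaining genes of the leading 15 were Adam19, Ccl21a, Lrrn4cl, Pcsk6, Gm4258, Ifi204 and Nid2.

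Over all 468 members the leading genes were others, among them Aplnr, Sparcl1, Flt1 and Ly6c1, which are blood endothelial genes. Aplnr averaged 100.4 CPM over all members, against at most 2.54 CPM in another LEC type. Ccl21a, a chemokine for CCR7-bearing cells, varied widely, between 107 and 4107 CPM over the libraries of Ptx3/Reln members. At the other end, the floor gene Ccl20 averaged 5.93 CPM in Ptx3/Reln members and 1383 CPM in floor LECs, and the collagen gene Col15a1 2.01 and 247 CPM. Of 4082 genes with at least 50 CPM in these members, 24 were higher in each of their libraries than in any library of the other types. Besides the rule genes these include Lsamp, Apba2, Hpgd, Bcl2, Ccnd2, Angpt2, Hspg2, Lyn, Thy1 and Ets2. Over 9493 genes of the mean profiles, Spearman's rho of the members was 0.913 with ceiling, 0.905 with medullary and 0.858 with floor LECs, a description in which all profiles share the same libraries.

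**Figure D2:**
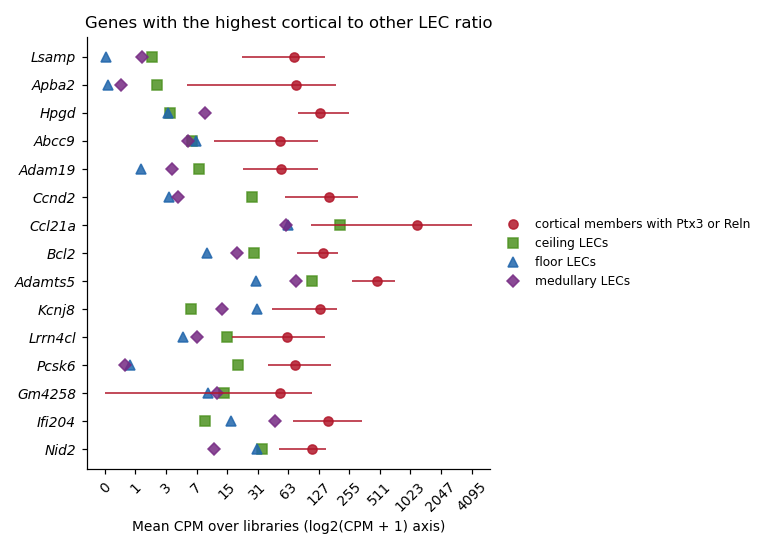
Mean CPM (log2(CPM + 1) axis) of the 15 genes outside the rule with the highest ratio of cortical Ptx3/Reln members to the highest other LEC type, with a line between the lowest and the highest library of the members. Lsamp, Apba2 and Hpgd show the widest gaps between cortical LECs (71.9, 75.7 and 132 CPM) and the other types.

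The share of cortical LECs among the kept LECs was compared between the nodes. It counts cells by UMIs of the rule genes, so it can also move with the levels of these genes. Of them, Reln was lower in members of live draining than of live non-draining nodes, while Ptx3 overlapped, as given below. Itih5 went the same way as Reln. With each live library left out in turn, the log2 difference over all members was -0.81 to -0.49 for Itih5. It was -0.79 to -0.56 for Reln and 0.17 to 0.57 for Ptx3, described without a test. The share of cortical LECs is read with this limit. It was 3.69%, 3.29% and 5.46% in live draining nodes, against 4.97%, 7.72% and 6.33% in live non-draining nodes. The groups overlapped, since live draining replicate C lay above live non-draining replicate A. The mean share was 4.14% ± 1.16 in live draining nodes, compared with 6.34% ± 1.38 in live non-draining nodes (SD, n = 3 each, exact permutation test, p = 0.2, two-sided, where 0.1 is the smallest p possible). On the cell numbers of all classes, edgeR gave a log2 difference of -0.57 (SE 0.21, adjusted p = 0.0682 over 5 classes). This passed the threshold without live draining replicate C (adjusted p = 0.0129) or live non-draining replicate A (adjusted p = 0.0226), and with limma on logit shares (-0.66, adjusted p = 0.033). With every cell thinned to 2000 UMIs the means were 1.84% in live draining nodes, compared with 3.62% in live non-draining nodes, and for the Ptx3/Reln members alone the log2 difference was -0.44 (edgeR, adjusted p = 0.367).

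Between the fixed nodes the shares were 5.11%, 4.26% and 5.04% in draining against 3.32%, 4.39% and 3.72% in non-draining nodes. Here the draining node had the higher mean, 4.80% ± 0.47 against 3.81% ± 0.54 (SD, n = 3 each, exact permutation test, p = 0.2), and the groups overlapped in 1 library of each. The edgeR log2 difference was 0.36 (SE 0.22, adjusted p = 0.18). Naive nodes had shares of 7.28%, 5.78%, 5.59% and 4.79%. The median mitochondrial percent of members differed between libraries, with 3.34 to 6.54% in live draining nodes, compared with 4.30 to 9.58% in live non-draining nodes, and at most 10% mitochondrial UMIs the live log2 difference was -0.34 (edgeR, adjusted p = 0.598). The part of mitochondrial content or of rule gene levels in the differences was not tested.

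Within the cortical LECs, 9 of 6339 tested genes (0.142%) were called between the node that drained a live tumor and the contralateral node. Ucp2, Vim, Flna, S100a11, Loxl2 and Gapdh rose (6 genes, 0.0947%) and Scarb1, Gm37033 and Itpkb fell (3 genes, 0.0473%). The test was edgeR's quasi-likelihood fit over UMIs summed per library, with genes called where the p adjusted after Benjamini and Hochberg was under 0.05. An unadjusted p under 0.05 was found for 835 genes (13.2%), 440 higher (6.94%) and 395 lower (6.23%), and the libraries of both nodes did not overlap for 1214 genes (19.2%). In simulated sums of this size, with 100 genes changed 2-fold and 100 changed 4-fold, 29% and 79% of these were recovered. The simulated fit called 114 genes in place of 9, so the unadjusted p needed for a call was less strict there than in the data.

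Vim, which encodes the intermediate filament vimentin, had 1443, 1999.7 and 1794 CPM in live draining nodes against 397, 892 and 235 CPM in live non-draining nodes (log2 difference 1.78, SE 0.36, edgeR adjusted p = 0.0476). All draining libraries stood above all non-draining ones, and the other 10 libraries lay between 216 and 1062 CPM. Ucp2, a carrier gene of the mitochondrial inner membrane, had 92.1, 99.7 and 102 CPM in live draining against 28.4, 13.1 and 6.72 CPM in live non-draining nodes (log2 difference 2.45, SE 0.48, edgeR adjusted p = 0.0385). Flna, which encodes the actin crosslinker filamin A, had 141, 142 and 167 CPM in live draining against 52.0, 52.5 and 40.3 CPM in live non-draining nodes (log2 difference 1.62, SE 0.30, edgeR adjusted p = 0.0313). For both genes the live non-draining libraries were the low ones, as naive nodes had 45.7 to 143 CPM of Ucp2 and 121 to 145 CPM of Flna.

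S100a11, a calcium-binding protein gene, had 1105, 1176 and 1049 CPM in live draining against 501, 518 and 248 CPM in live non-draining nodes (log2 difference 1.38, SE 0.25, edgeR adjusted p = 0.0313). The live draining libraries stood above all 13 others, which reached 701 CPM. Loxl2, an enzyme gene of collagen crosslinking, had 201, 231 and 196 CPM in live draining against 94.5, 78.7 and 80.6 CPM in live non-draining nodes (log2 difference 1.28, SE 0.26, edgeR adjusted p = 0.0488). Among the other groups, fixed non-draining replicate B had the highest Loxl2, with 198 CPM, within the live draining range. The glycolysis gene Gapdh had 552, 499 and 679 CPM in live draining against 331, 256 and 255 CPM in live non-draining nodes (log2 difference 1.03, SE 0.19, edgeR adjusted p = 0.0313), and stood above all other libraries in live draining nodes.

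Of the genes that fell, Itpkb, an inositol phosphate kinase gene, had 115, 121 and 127 CPM in live draining against 222, 289 and 389.5 CPM in live non-draining nodes (log2 difference -1.29, SE 0.25, edgeR adjusted p = 0.0385). Gm37033, a gene model with no role known here, had 62.5, 31.5 and 50.8 CPM in live draining against 189, 223 and 161 CPM in live non-draining nodes (log2 difference -1.92, SE 0.33, edgeR adjusted p = 0.0313). Both were lower in each live draining library than in any other library. Scarb1, which encodes the HDL receptor, had 98.6, 147 and 72.6 CPM in live draining against 425, 617 and 859.6 CPM in live non-draining nodes (log2 difference -2.60, SE 0.49, edgeR adjusted p = 0.0313). In Ptx3/Reln members Scarb1 had only 26.8, 18.2 and 39.3 CPM in live draining nodes, compared with 38.0, 62.3 and 22.9 CPM in live non-draining nodes (log2 difference -0.52, SE 0.54, edgeR adjusted p = 0.722), so its call was lost once the cells with Itih5 alone were left out. These cells numbered 2 to 5 in each live draining and 3 to 6 in each live non-draining library. Leaving out live draining replicate A or C or live non-draining replicate C gave 0 called genes in place of 9, leaving out live non-draining replicate B gave 2, and leaving out live draining replicate B gave 15.

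**Figure D3:**
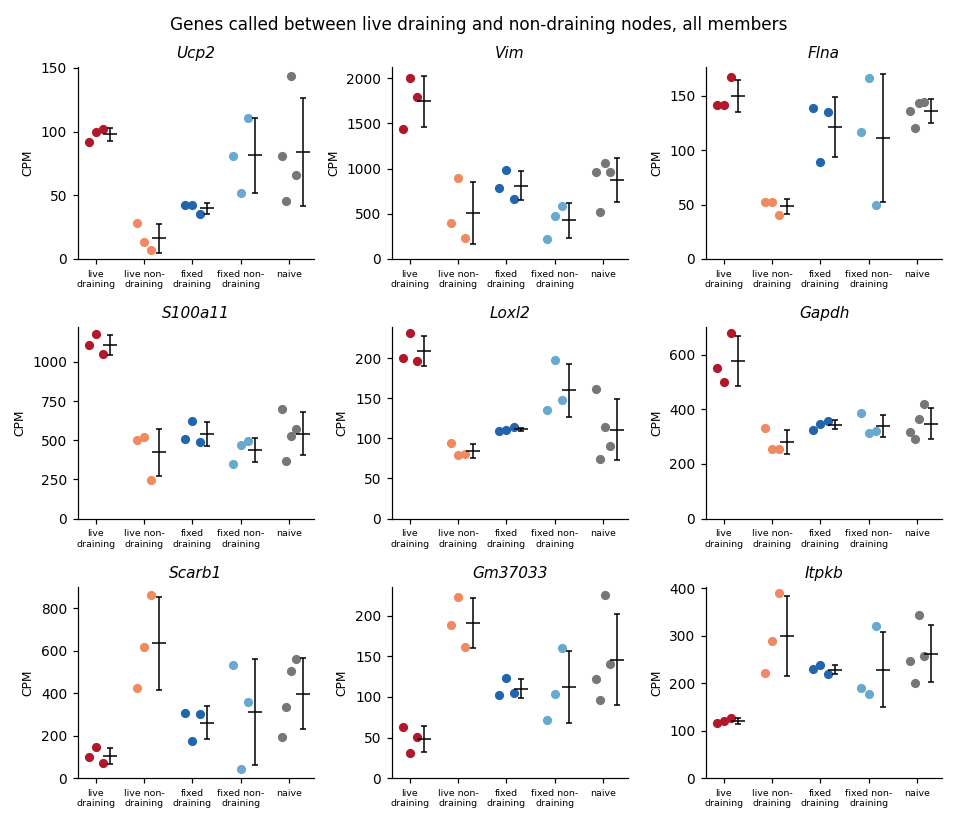
CPM (linear axis from 0) of the 9 genes called between live draining and live non-draining nodes, in each of the 16 libraries by group, with the mean and SD (black). S100a11 in live draining nodes (1049 to 1176 CPM) lies above every other library, whereas Ucp2 and Flna in live draining nodes lie near naive nodes.

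Among the Ptx3/Reln members, 43 of 5540 genes were called between the live nodes (0.776%), 28 higher (0.505%) and 15 lower (0.271%), and 8 of the 9 genes above were among them (88.9% of the 9, 18.6% of the 43). The log2 differences of Vim (1.61), S100a11 (1.27), Ucp2 (2.29) and Flna (1.76) were of like size. Further genes that rose were the annexin gene Anxa2 (log2 difference 1.56, SE 0.36, edgeR adjusted p = 0.0324) and the galectin gene Lgals1 (log2 difference 1.84, SE 0.40, edgeR adjusted p = 0.022). Socs3, an inhibitor of cytokine signaling, had 166, 134 and 131 CPM in live draining against 25.3, 44.5 and 22.9 CPM in live non-draining nodes (log2 difference 2.20, SE 0.44, edgeR adjusted p = 0.0196), and the other 9 libraries held 10.4 to 93.9 CPM. Ifi27l2a, an interferon-inducible gene, had 3798, 2756 and 3593 CPM in live draining against 2215, 1335 and 801 CPM in live non-draining nodes (log2 difference 1.20, SE 0.24, edgeR adjusted p = 0.0196). For both genes the live draining libraries stood above all others. Over all members neither passed the threshold (Socs3 1.46, edgeR adjusted p = 0.128, and Ifi27l2a 1.39, adjusted p = 0.0592).

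Of genes that stood high in cortical LECs, Kcnj8 had 71.6, 48.6 and 96.2 CPM in Ptx3/Reln members of live draining against 215, 196 and 206 CPM of live non-draining nodes (log2 difference -1.47, SE 0.28, edgeR adjusted p = 0.0164). The TGF-beta coreceptor gene Tgfbr3 fell too (log2 difference -0.88, SE 0.20, edgeR adjusted p = 0.027). Reln, a gene of the rule, had 394, 449 and 372 CPM in live draining against 671, 864 and 756 CPM in live non-draining nodes, without overlap, as in 18.9% of the 5540 genes, and is described without a test. Ptx3, also of the rule, had 698, 734 and 402 CPM in live draining nodes, compared with 430.3, 596 and 675 CPM in live non-draining nodes, and the groups overlapped. Mrc1 had 684, 309.6 and 651 CPM in live draining nodes, compared with 1044, 899 and 893 CPM in live non-draining nodes, with no overlap (log2 difference -0.77, SE 0.22, edgeR adjusted p = 0.0907). Outside the rule for named genes, and chosen after its values were seen, Sparc, a matricellular protein gene, had 1149.7, 1184 and 1158 CPM in live draining against 519, 481 and 664 CPM in live non-draining nodes (log2 difference 1.08, SE 0.18, edgeR adjusted p = 0.00828). Over all members Sparc did not pass the threshold (log2 difference 0.40, SE 0.28, edgeR adjusted p = 0.579). Of 78 ribosomal protein genes, a list chosen after the values were seen, 4 rose in the Ptx3/Reln members, 72 were positive and the median log2 difference was 0.42. Over all members the same genes had a median of 0.35, with none called.

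Lists of genes were counted in the live comparison over all members, beside a median of 0.01 on the log2 scale over all 6339 genes, of which 0.0947% rose by the adjusted test and 6.94% were higher and 6.23% lower at an unadjusted p under 0.05. Of 28 actin and motility genes, 2 rose and 21 were positive (median 0.20). Of 26 basement membrane and matrix genes, 1 rose and 21 were positive (median 0.39), and of 16 genes of glycolysis and hypoxia, 1 rose and 14 were positive (median 0.30). None of 20 cell cycle genes was called by edgeR, with 20 positive, 8 higher at an unadjusted p under 0.05 and a median of 0.90. Leaving out each live library in turn gave a cell cycle median of 0.73 to 1.96, the highest without live non-draining replicate A, and without cells holding leukocyte or fibroblast UMIs it was 2.59. None of 44 nuclear genes of oxidative phosphorylation was called either, with 41 positive, 14 higher at that level and a median of 0.36. Of 24 immediate early and dissociation stress genes none was called, 7 were lower at an unadjusted p under 0.05, 1 was higher, and the median was -0.60. In Ptx3/Reln members 1 of 23 rose, as did 0.505% of all genes there, and the median was 0.15. Of these 23 genes, 2 were lower and 5 higher at an unadjusted p under 0.05, beside 784 of all 5540 genes in either direction. Of 15 flow and quiescence factors none was called, 6 were lower at that level and the median was -0.59. Ccl21a had 2167, 787 and 6863 CPM in live draining against 94.5, 131 and 161 CPM in live non-draining nodes, without overlap (log2 difference 4.69, SE 1.07, edgeR adjusted p = 0.0745).

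Transcripts of the proliferation genes Mki67 or Top2a were found in 7 of 86 members of live draining nodes (2, 2 and 3 per library) and in 1 of 72 of live non-draining nodes. In fixed nodes they were found in 14 of 124 draining and 2 of 43 non-draining members, and in naive nodes in 8 of 143. Markers of other cell types moved with these results. Of 11 markers of fibroblastic cells, 10 had a UMI and Pdgfrb was at 0 by the rule. Their summed CPM was 353 to 3055 in live draining members, compared with 109 to 215 in live non-draining members. In fixed nodes the sum of these fibroblastic markers was 378 to 5674 in draining and 57.4 to 115 in non-draining members. Summed over Ptx3/Reln members it was 349 to 742 CPM in live draining nodes, compared with 138 to 219.6 CPM in live non-draining nodes. For fixed nodes the sum over these members was 187 to 904 CPM in draining and 108 to 117 CPM in non-draining nodes. Of 13 markers of macrophages, monocytes and neutrophils, 12 had a UMI and Fcgr1 was at 0, and their sum was 70.1 to 188 CPM in live draining members, compared with 18.2 to 38.7 CPM in live non-draining members. For the Ptx3/Reln members this sum was 48.4 to 81.1 CPM in live draining nodes, compared with 24.3 to 44.9 CPM in live non-draining nodes. The sum of 9 ceiling LEC markers in Ptx3/Reln members was 1531 to 1865 CPM in live draining nodes, compared with 1056 to 1329 CPM in live non-draining nodes, and Vim is a gene that stood high in ceiling LECs. The sum of 7 markers of Clec4g LECs was lower, with 4078 to 4260 CPM in live draining nodes, compared with 4611 to 5864 CPM in live non-draining nodes. Ccl21a and Lgals1 are also made by fibroblastic cells, and the part of RNA of these other cells in the values was not tested. The summed CPM of 12 blood endothelial markers was 3091 to 11619 in live draining members, compared with 4248 to 5898 in live non-draining members. The highest of these values, in live draining replicate C, rested on 1 cell rich in blood endothelial genes, which held 2936 of the 2985 UMIs of Glycam1 there, a gene of high endothelial venules and also of floor LECs. Without that cell the sum in this library was 2141 CPM and Glycam1 stood at 176 CPM, against 10839 CPM with it. Among Ptx3/Reln members, 11 of the 12 blood endothelial markers had a UMI and Esm1 was at 0, and the sum was 1816 to 2010 CPM in live draining nodes, compared with 1078 to 1631 CPM in live non-draining nodes. Of 7 markers of epithelial and carcinoma cells, Epcam, Krt8, Krt18, Krt19 and Cdh1 were at 0 in the members, and the sum was 0 in each live library and reached 3.86 CPM in a fixed draining and 10.2 CPM in a naive library.

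Between the nodes of mice given fixed cells, Isg15 was lower in the draining node over all members, but was not called in Ptx3/Reln members. Isg15, a ubiquitin-like modifier induced by type I interferon, was the only call of 6339 genes (0.0158%), and 493 genes (7.78%) had an unadjusted p under 0.05. Isg15 (chr4:156199424-156200818, minus strand) had 132, 174 and 65.6 CPM in fixed draining against 972, 395 and 641 CPM in fixed non-draining nodes (log2 difference -2.43, SE 0.36, edgeR adjusted p = 0.00606). The high libraries were those of the fixed non-draining node, as live non-draining nodes had 241, 243 and 161 CPM and naive nodes 156, 362, 169 and 285 CPM. The call was lost without fixed draining replicate A (adjusted p = 0.1), fixed draining replicate C (adjusted p = 0.101) or fixed non-draining replicate A (adjusted p = 0.131). In Ptx3/Reln members 0 of 5540 genes were called by edgeR (0%), 404 (7.29%) had an unadjusted p under 0.05, and Isg15 had 118, 148 and 58.9 CPM in fixed draining against 481 and 453 CPM in the 2 fixed non-draining libraries kept (log2 difference -2.07, SE 0.46, edgeR adjusted p = 0.201). Fixed non-draining replicate A thus held 972 CPM over its 17 members and 481 CPM without the 2 with Itih5 alone. Without the cells rich in blood endothelial genes 0 of 5964 genes were called.

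Rsad2, the gene of the antiviral protein viperin, had 19.9, 17.0 and 26.2 CPM in fixed draining and 567, 624 and 542 CPM in fixed non-draining nodes (log2 difference -4.76, SE 0.92, edgeR adjusted p = 0.0668). It was chosen after its values were seen, as were Ifit1 and Ifit3. Ifit1 had 39.8, 38.3 and 65.6 CPM in fixed draining and 539.9, 177 and 172 CPM in fixed non-draining nodes (log2 difference -2.70, SE 0.53, edgeR adjusted p = 0.0668), and Ifit3 had 17.4, 17.0 and 21.9 CPM in fixed draining and 297, 72.8 and 197 CPM in fixed non-draining nodes (log2 difference -3.33, SE 0.66, edgeR adjusted p = 0.0668). Tnfsf10, which encodes the death ligand TRAIL, had 172, 243 and 197 CPM in fixed draining and 432, 427 and 443 CPM in fixed non-draining nodes (log2 difference -1.10, SE 0.22, edgeR adjusted p = 0.0668). These values are over all members, of which each fixed non-draining library held 11 to 17. The groups of these 4 genes did not overlap, with the draining node below as for 5.05% of all genes, and none of the 4 passed the threshold. Among 21 tested genes of the type I interferon list, 1 fell, 17 were lower at an unadjusted p under 0.05 (3.85% of all genes were), 1 was positive and the median was -1.25, beside 0.01 over all genes. Leaving out each library in turn moved that median between -1.50 and -0.96. In Ptx3/Reln members none of 20 was called, 10 were lower at that level (3.32% of all genes were) and the median was -0.76. Marker sums of other cells moved here as well. Those of macrophages, monocytes and neutrophils were 42.5 to 67.6 CPM in fixed draining members, compared with 0 to 33.3 CPM in fixed non-draining members, those of 8 B cell markers 77.2 to 94.6 CPM in fixed draining and 28.8 to 58.3 CPM in fixed non-draining members, and those of 7 pericyte markers 81.0 to 671 CPM in fixed draining and 22.9 to 33.3 CPM in fixed non-draining members. In Ptx3/Reln members the fixed groups overlapped in each of these sums. There the macrophage, monocyte and neutrophil sum was 30.5 to 67.6 CPM in draining and 21.7 to 32.0 CPM in non-draining nodes. The B cell sum was 61.0 to 101 and 32.5 to 63.9 CPM, and the pericyte sum 26.1 to 70.4 and 21.3 to 32.5 CPM. The part of these other cells in the values was not tested.

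The promoters of 4 of these genes show the element through which type I interferon is known to act, and are printed from RefSeq (GRCm38.p6) as the 200 bases before the start, 5′ to 3′ on the strand of the gene. Capitals mark matches to the core of the interferon-stimulated response element, searched as TTTC, 2 bases of any kind and TTTC, or on the other strand GAAA, 2 bases of any kind and GAAA. Overlapping matches were counted each.
Isg15, chr4:156200819-156201018, minus strand: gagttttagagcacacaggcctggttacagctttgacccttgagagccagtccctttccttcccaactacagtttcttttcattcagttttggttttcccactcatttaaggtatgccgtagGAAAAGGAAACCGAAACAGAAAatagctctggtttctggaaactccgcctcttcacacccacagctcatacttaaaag
Rsad2, chr12:26456453-26456652, minus strand: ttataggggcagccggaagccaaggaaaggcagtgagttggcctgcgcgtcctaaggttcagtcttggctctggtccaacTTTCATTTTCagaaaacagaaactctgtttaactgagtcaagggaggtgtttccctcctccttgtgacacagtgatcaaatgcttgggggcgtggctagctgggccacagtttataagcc
Ifit1, chr19:34640689-34640888, plus strand: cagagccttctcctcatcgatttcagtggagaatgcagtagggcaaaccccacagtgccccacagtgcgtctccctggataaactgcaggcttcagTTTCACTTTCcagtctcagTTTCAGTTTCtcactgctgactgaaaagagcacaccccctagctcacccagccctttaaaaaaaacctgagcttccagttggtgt
Ifit3, chr19:34583329-34583528, plus strand: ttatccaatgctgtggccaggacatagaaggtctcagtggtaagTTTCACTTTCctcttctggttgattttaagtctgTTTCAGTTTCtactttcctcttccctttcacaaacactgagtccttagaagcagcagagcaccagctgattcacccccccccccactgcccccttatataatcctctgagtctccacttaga
Isg15 holds 3 overlapping matches, Rsad2 1, and Ifit1 and Ifit3 2 each. The core was found in 1131 of 32851 promoter windows of 300 bases (3.44%), and in 13 of the 20 genes of the type I list that had a window (65%). It was also found in 11 of 16 genes of the interferon-gamma list (68.8%), so that it does not set the type I list apart from that list. A match is a description of the sequence and does not show that a factor binds there.

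**Figure D4:**
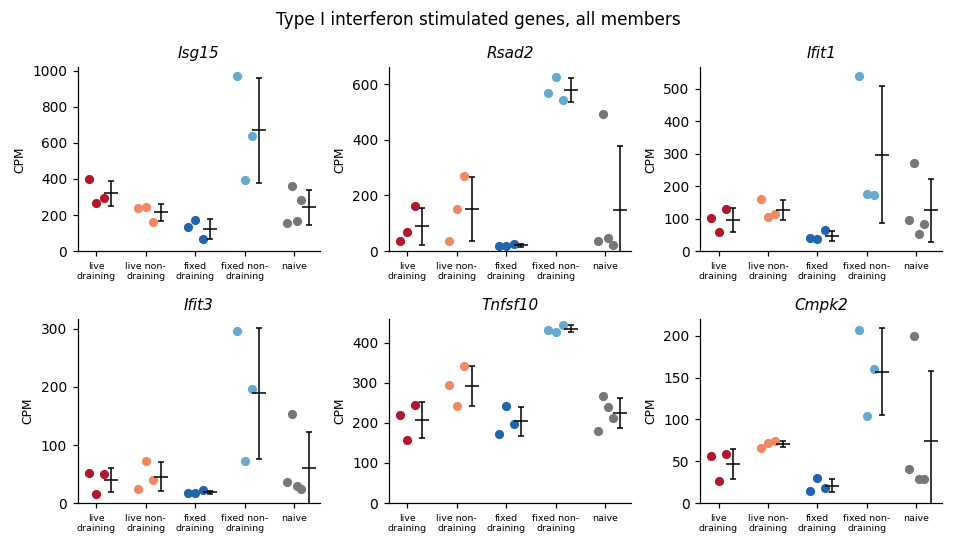
CPM (linear axis from 0) of 6 type I interferon stimulated genes over all members in each of the 16 libraries by group, with the mean and SD (black). The fixed draining libraries of Rsad2 (17.0 to 26.2 CPM) lie far below the fixed non-draining ones (542 to 624 CPM), and 1 naive library, replicate B, stands at 491 CPM.

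The live and fixed inocula were then compared by the difference of their draining effects in the same fit. Isg15 was again the only call of 6339 genes (0.0158%), beside 453 (7.15%) at an unadjusted p under 0.05, with a draining effect that was 3.00 higher on the log2 scale with live than with fixed cells (SE 0.50, edgeR adjusted p = 0.0329). It had 398, 268 and 294 CPM in live draining nodes, compared with 241, 243 and 161 CPM in live non-draining nodes (log2 difference 0.57, SE 0.35, edgeR adjusted p = 0.501). The call was kept without fixed draining replicate B or fixed non-draining replicate B, and lost without any other of the 12 libraries of inoculated mice, with an adjusted p of up to 0.232. By the same test 0 of 5540 genes were called in Ptx3/Reln members (0%), and 422 (7.62%) had an unadjusted p under 0.05. Of the 21 type I genes, 20 had a positive difference and 14 were higher at an unadjusted p under 0.05 (3.41% of all genes were), with a median of 1.27. For the contralateral effect of a live tumor, live non-draining against naive nodes, 0 of 6339 genes were called (0%) by edgeR and 0 by DESeq2, and 370 (5.84%) had an unadjusted p under 0.05 by edgeR.

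The response of cortical LECs to the live tumor was set against that of the other LEC types in the same libraries, since the difference of draining effects was not used to choose the cells. Own effects were called for 3700 of 12088 genes in floor (30.6%), 2363 of 12152 in ceiling (19.4%) and 836 of 8799 in medullary LECs (9.5%), from larger sums of UMIs. Tested as a difference, the draining effect of cortical LECs departed from that of floor LECs for 211 of 10814 genes (1.95%), 142 of them lower (1.31%), from that of medullary LECs for 51 of 7852 (0.65%), 39 of them lower (0.497%), and from that of ceiling LECs for 7 of 10587 (0.0661%), 5 of them lower (0.0472%). With the same number of cells of both types in each library, 88 genes were called against floor, 46 against medullary and 12 against ceiling LECs. In Ptx3/Reln members 213 of 11138 genes differed from floor LECs, with 102 higher and 111 lower, so that the directions were nearly even there. Against medullary LECs 41 of 7670 differed (13 higher and 28 lower), and against ceiling LECs 25 of 10925 (14 higher and 11 lower). Leaving out each live library in turn gave 112 to 174 genes against floor, with 112, 133 and 139 without live non-draining replicate A, live draining replicate A and live non-draining replicate C. Against medullary LECs it gave 15 to 33, the lowest without live draining replicate A and each under 51 by more than 1.5 times, and against ceiling LECs 2 to 15, with 2 and 3 without live draining replicate A and live non-draining replicate C and 15 without live draining replicate B.

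Of 24 genes induced by interferon-gamma, 17 had a draining effect that differed between cortical and floor LECs. Cortical values of single libraries are given over all members here, the cells rich in blood endothelial genes among them. The differences of Cxcl9, Cxcl10, Gbp4 and Irf1 from floor LECs kept their calls in Ptx3/Reln members. Cxcl9, a chemokine that attracts CXCR3-bearing lymphocytes, had 19.7, 31.5 and 76.3 CPM in cortical LECs of live draining and 510.4, 144 and 13.4 CPM of live non-draining nodes. In floor LECs of the same libraries Cxcl9 had 4416, 3554 and 4039.6 CPM in live draining against 37.7, 106 and 21.6 CPM in live non-draining nodes. In the draining node all floor values were high and all cortical values low. In the non-draining node the cortical values varied widely, with the highest (510.4 CPM) in replicate A. The effects differed (-8.65, SE 1.23, edgeR adjusted p = 3.77e-05). Cxcl10, a chemokine for the same receptor, had 158, 57.7 and 581 CPM in cortical LECs of live draining and 354, 584 and 94.0 CPM of live non-draining nodes, and 2128, 1855 and 1874 CPM of live draining and 116, 101 and 236 CPM of live non-draining nodes in floor LECs (difference -4.30, adjusted p = 0.000428).

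Gbp4, a guanylate-binding protein gene, had 72.3, 63.0 and 149 CPM in cortical LECs of live draining and 369, 223 and 215 CPM of live non-draining nodes, and 207, 149 and 160.2 CPM of live draining and 26.5, 29.4 and 33.9 CPM of live non-draining nodes in floor LECs (difference -4.07, edgeR adjusted p = 5.85e-06). The transcription factor gene Irf1 had 69.0, 78.7 and 113 CPM in cortical LECs of live draining and 194, 184 and 175 CPM of live non-draining nodes, and 182, 182 and 184 CPM of live draining and 119, 109 and 139 CPM of live non-draining nodes in floor LECs (difference -1.66, edgeR adjusted p = 0.000272). For Gbp4 and Irf1 the cortical libraries of the draining node were all below those of the non-draining node, and the floor libraries all above.

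Of 24 interferon-gamma genes tested against floor LECs, 17 differed, each with the lower effect in cortical LECs (1.31% of all genes were lower), and the median difference was -2.0, beside 0.04 over all genes. In Ptx3/Reln members 15 of 24 differed (0.997% of all genes were lower there), with a median of -1.98. Within cortical LECs, over all members, none of 20 such genes was called by edgeR between the live nodes. Of these, 5 were lower at an unadjusted p under 0.05 (6.23% of all genes were). Their median was -0.38 (-0.60 without live draining replicate C and -0.22 without live draining replicate B). Their own effects in Ptx3/Reln members are not given here. In floor LECs 23 of 24 rose, as did 16.2% of all genes (median 1.82). Against medullary LECs 7 of 22 differed (median -1.30, beside 0.497% of all genes that were lower), and against ceiling LECs none of 23 was called, 7 being lower at that level as for 4.09% of all genes (median -0.61). Of the type I list, 15 of 25 genes had the lower effect against floor (1.31% of all genes did, median -1.93, and 10 of 25 in Ptx3/Reln members), 1 of 23 against medullary (median -0.91) and none of 25 against ceiling LECs (5 lower at an unadjusted p under 0.05, median -0.39).

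**Figure D5:**
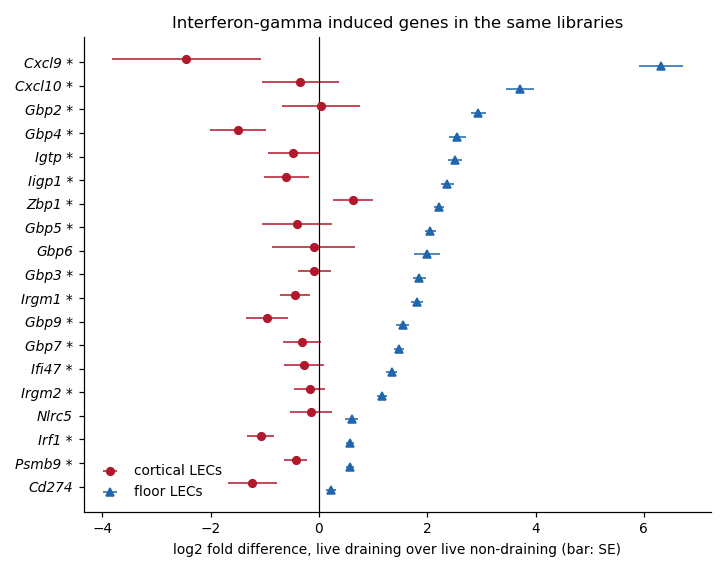
Log2 difference (points, with SE as bars) between live draining and live non-draining nodes of 19 interferon-gamma induced genes in cortical (circles) and floor LECs (triangles) of the same libraries. Cortical values are over all members, with the cells rich in blood endothelial genes. An asterisk marks the 16 of these genes whose effects differed at an adjusted p under 0.05, and in floor LECs 19 of 19 genes lie above 0, and in cortical LECs 17 of 19 lie below 0.

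Other genes at the smallest p against floor LECs were Kcnj8, Cd200, Col4a2, Upp1, Sp100 and Fxyd6. Kcnj8 had 72.3, 42.0 and 79.9 CPM in cortical LECs of live draining and 161, 144 and 121 CPM of live non-draining nodes, and 103, 119 and 109.8 CPM of live draining and 12.0, 19.0 and 16.2 CPM of live non-draining nodes in floor LECs (difference -3.95, SE 0.35, edgeR adjusted p = 1.91e-08). Kcnj8 thus stood apart between the nodes in both types, in opposite directions. Cd200, whose product restrains myeloid cells, had 92.1, 131 and 145 CPM in cortical LECs of live draining and 227, 125 and 363 CPM of live non-draining nodes, and 326, 358 and 330.1 CPM of live draining and 48.1, 36.0 and 33.9 CPM of live non-draining nodes in floor LECs (difference -4.00, edgeR adjusted p = 2.02e-07). In Ptx3/Reln members the difference of Cd200 was -1.47 and no longer passed the threshold (edgeR adjusted p = 0.388). Those of Kcnj8, Col4a2, Upp1, Sp100 and Fxyd6 kept their calls in these members.

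Col4a2, a basement membrane collagen gene, had 579, 509 and 614 CPM in cortical LECs of live draining and 340.3, 551 and 651 CPM of live non-draining nodes, and 81.5, 75.7 and 84.5 CPM of live draining and 5.61, 9.48 and 16.2 CPM of live non-draining nodes in floor LECs (difference -2.82, edgeR adjusted p = 1.63e-06). Cortical levels of Col4a2 were thus above floor levels in both nodes. Upp1, a uridine phosphorylase gene (difference -3.71, adjusted p = 9.83e-07), and Sp100, a nuclear body gene (difference -4.31, adjusted p = 9.83e-07), also differed. Fxyd6, a regulator of the sodium pump, had 352, 388 and 370.4 CPM in cortical LECs of live draining and 317, 177 and 329 CPM of live non-draining nodes, while floor LECs had 85.6, 96.4 and 82.2 CPM in live draining and 283, 284 and 288 CPM in live non-draining nodes (difference 2.14, edgeR adjusted p = 3.2e-06).

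Against medullary LECs, the gene with the smallest p was Adamts5, with 618, 609 and 534 CPM in cortical LECs of live draining and 463, 590.3 and 242 CPM of live non-draining nodes. In medullary LECs Adamts5 had 236, 319.8 and 294 CPM in live draining nodes, compared with 31.3, 45.7 and 13.1 CPM in live non-draining nodes (difference -2.80, SE 0.32, edgeR adjusted p = 1.09e-05). Gbp4 (-3.27), Fxyd6 (1.90), Upp1 (-3.22), Cxcl9 (-6.46) and Cyyr1 (-2.94) also differed, of which Cxcl9 lost its call without live non-draining replicate A (-4.93, adjusted p = 0.236) and Cyyr1 in Ptx3/Reln members (-1.0, adjusted p = 0.538). Against ceiling LECs, the platelet integrin gene Itga2b had 782, 525 and 563 CPM in cortical LECs of live draining and 609.7, 439 and 255 CPM of live non-draining nodes, and 167, 147 and 183 CPM of live draining and 26.2, 22.8 and 26.2 CPM of live non-draining nodes in ceiling LECs (difference -2.23, edgeR adjusted p = 0.000138). The lysosomal protease gene Lgmn (difference -1.23, adjusted p = 0.0143) and Vim (difference 1.56, adjusted p = 0.0493) differed too. Lgmn lost its call without live draining replicate A, live non-draining replicate A or live non-draining replicate C (adjusted p up to 0.133), and Vim kept its call only without live non-draining replicate B when each live library was left out in turn (adjusted p up to 0.241), whereas Itga2b kept its call in all 6 cases. Vim was high in ceiling LECs of both nodes, with 2216, 2139.6 and 2256 CPM in live draining nodes, compared with 2019, 1644 and 1576 CPM in live non-draining nodes. Scarb1 (-2.18), Cyyr1 (-1.96) and Nostrin (-3.09) were called over all members but not in Ptx3/Reln members, where the difference of Cyyr1 was 0.056 and that of Nostrin 4.00. Itga2b against ceiling and Adamts5 against medullary LECs kept their calls in Ptx3/Reln members.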

How the data were processed

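Single cells of PDPN-enriched inguinal node stroma were profiled with droplet 3′ RNA sequencing in 16 libraries. The deposited matrices hold UMI counts per gene and barcode, made by the authors with Cell Ranger 3.0.1 on mm10, as the submitters' processing notes name them. Cells and LECs were selected on these counts by the rule given above, with all limits as stated. The cortical cells and the gene lists were chosen with earlier results of these data known. No doublet caller was run. An alternative left out cells holding a UMI of Ptprc, Cd3e, Cd79a, Cd79b, Pdgfra or Col1a1. It cannot find doublets among LECs or with blood endothelial cells, since it uses no gene of these.

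UMIs were summed over the members of a library where at least 10 were present, filtered with filterByExpr, scaled by TMM and fitted by edgeR's quasi-likelihood test over all 16 libraries in 5 groups, with Benjamini-Hochberg adjustment over all tested genes and calls under 0.05. Differences of draining effects between LEC types were fitted on the summed counts of both types, with the library as a block. Shares were tested by edgeR on cell numbers of 5 classes and by exact two-sided permutation tests. Named genes were the LEC markers, the 10 largest rises and falls among non-overlapping calls whose mean log2 CPM reached 5 (live, or 5 and 5 for fixed), the 6 calls with the smallest p in the interaction and each type comparison, up to 4 genes per list with the smallest p in the live comparison, and the 15 genes with the highest cortical ratio at 50 CPM or more. Alternatives were DESeq2, RLE scaling, no filter, a replicate block, the 12 libraries of inoculated mice, other limits on sums, mitochondrial UMIs and cells, and leaving out each library. On simulated counts with 100 genes changed 2-fold and 100 changed 4-fold, the live fit recovered 29% and 79% of these among 6339 genes. In the same way the comparison with floor LECs recovered 11% and 51% among 10814 genes. That simulated fit called 68 genes in place of 211, so the unadjusted p needed for a call was stricter there than in the data. Its simulated floor LECs had no draining effect. The values of 1 listed gene are not reported here, although it counts in its lists. Gene coordinates are those of Gencode vM21 on GRCm38. Analyses used R 4.3.3, edgeR 4.0.16, limma 3.58.1, DESeq2 1.42.0, Python 3.11.15, scipy 1.17.1 and pandas 2.3.3.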

Additional observations from a re-analysis of the deposited data

Results flagged for a closer look

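In naive replicate B, 3 interferon-stimulated genes of the cortical LECs stood far from the other naive libraries. Rsad2 had 491 CPM there, against 20.7 to 46.6 CPM in the other 3 naive libraries. Cmpk2 had 199.6 CPM, against 28.7 to 40.5 CPM. Ifit3 had 154 CPM, against 24.8 to 36.2 CPM. Of 33 groups of 4 naive libraries tested for such a gap, 3 had one, where chance gives about 1 in 20 for separate groups. The 3 genes are type I interferon stimulated genes, stood high in the same library and were chosen after values were seen. They are therefore not separate events, and the rates cannot be set against each other. Over all members, the draining effect on Isg15 differed between live and fixed inocula by 3.00 on the log2 scale, by the interaction term of the edgeR fit (adjusted p = 0.0329). No gene was called by that term in Ptx3/Reln members.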

How the results depend on the processing

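Between the live nodes, 9 genes were called, against 36 with DESeq2 (17 higher and 19 lower, against 6 and 3), 242 with no filter on low counts (128 higher and 114 lower), 27 with the replicate block, 14 with the 12 libraries of inoculated mice, 1 with a sum of at least 2, 16 without leukocyte or fibroblast UMIs, 16 with at most 30 cells per library, 43 in Ptx3/Reln members and 37 without the cells rich in blood endothelial genes. Between the fixed nodes, 1 gene was called, against 9, 120, 13, 9 and 4 for the first 5 of these settings in the same order and 2, 0 and 0 without leukocyte or fibroblast UMIs, in Ptx3/Reln members and without the blood endothelial cells, with 2 at a sum of at least 5. For the difference of live and fixed effects, 1 gene was called, against 3 with DESeq2, 60 with no filter, 2 with the replicate block, 2 with 12 libraries, 2 without leukocyte or fibroblast UMIs, and 0 at a sum of at least 5, at 10% mitochondrial UMIs, in Ptx3/Reln members and without the blood endothelial cells. Live non-draining against naive nodes gave 86 with no filter. Against floor LECs, 211 became 338 with no filter and 88 with equal cell numbers, against ceiling LECs 7 became 90 and 12, and 25 in Ptx3/Reln members, and against medullary LECs 51 became 132 with no filter. The live share difference passed with limma on logit shares (-0.66). In Ptx3/Reln members the differences of Cyyr1 (0.056) and Nostrin (4.00) against ceiling LECs turned positive. The causes were not tested.

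Leaving out 1 library gave 0 to 15 genes for live, 0 to 9 for fixed (9 without fixed non-draining replicate B), 0 to 2 for the difference of effects, 0 to 1 against naive (1 without live non-draining replicate A), 112 to 174 against floor, 2 to 15 against ceiling and 15 to 33 against medullary LECs, and log2 share differences of -0.80 to -0.43 for live and 0.24 to 0.47 for fixed. Of 222 such values of 36 called results on named genes, 147 stayed called, and of 252 values under other alternatives 217 did. This pool mixes results of unlike stability. Each of the 9 genes called between the live nodes stayed called in at most 2 of 6 cases, and Loxl2 in 0. The differences from floor LECs among the 36 stayed called in all 6 cases. Samples of 1 replicate letter did not deviate together (correlations of -0.08 to 0.04 over 6 pairs), so the letters were not used to pair the libraries, which does not show that they came from different mice, and the replicate block left the share differences at -0.58 and 0.36. With 11 to 56 members per library, 29% of 2-fold changes were recovered in simulated sums, so that most changes of this size would not be called.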
